A study of Homo sapiens with 4 samples.

Results

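Open chromatin was examined at 7 genes of the myeloid lineage, CD86, ITGAM, LY96, CSF1R, LYZ, VCAN and CD14, in LNCaP cells, a human prostate cancer line. A peak was taken as belonging to a gene when its summit lay in the gene body or within 25 kb of it, in hg19 coordinates. The rule found 60 of the 194551 peaks listed for vehicle and 53 of the 163735 peaks listed for GSK2879552. The assay was ATAC-seq, which reads out where a transposase can cut into DNA not covered by nucleosomes. One group received vehicle and the other GSK2879552, which inhibits LSD1 (KDM1A), a demethylase of histones, given in the labels as 50 µM for 4 hours in medium with 5% CSS, after maintenance in 10% fetal serum. Each condition had 2 sequencing lanes, labelled as technical replicates, and 1 peak list that both lanes name. There was therefore 1 library per condition, no test between conditions was possible, and all intervals below cover counting error only.

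LSD1 removes methyl groups from histone H3 lysine 4 and works with the CoREST complex, which DNA-binding repressors bring to their target genes. In myeloid leukaemia cells the repressors GFI1 and GFI1B recruit LSD1, and its inhibitors are known to release myeloid genes from repression there. CD86 and CD11b, the product of ITGAM, are read as surface markers of that response. A prostate epithelial line has no such programme as part of its lineage, so these loci show how genes of another lineage stand in the chromatin of LNCaP cells with and without the inhibitor.

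Across the 7 loci the chromatin of the treated cells looked like that of the treated library as a whole. Tags are the peak caller's count at the summit of a peak, recovered from its fold enrichment and −log10 p. Among the 60 vehicle peaks, 40 shared 1 bp or more with a GSK2879552 peak, or 66.7% (exact 95% Clopper-Pearson interval 53.3 to 78.3), against 61.5% of all vehicle peaks. Among the 53 GSK2879552 peaks, 41 shared bases with a vehicle peak, or 77.4% (63.8 to 87.7), against 76.5% of all. The other 20 vehicle peaks were listed in that condition only, 33.3% where the share over all vehicle peaks was 38.5%. Likewise 12 GSK2879552 peaks were listed in that condition only, 22.6% where the share over all was 23.5%. Each of these shares at the 7 loci lay near its background.

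At 36 sites exactly 1 peak of each list overlapped the other, which are called pairs here. The GSK2879552 library had the higher genome-wide background, 2.72 tags per position against 2.31. This was taken as a measure of depth, without library totals, so its tags were divided by 1.18 before comparison. Summed over the 36 pairs, 1297 vehicle and 1046 GSK2879552 tags stood in a depth-scaled ratio of 0.686 (95% binomial interval, exact, 0.632 to 0.745). The same ratio over all 110134 pairs was 0.683. The median log2 ratio was -0.54 at the 7 loci and -0.56 over all pairs. The interval at the 7 loci therefore held the value of all pairs.

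By locus the scaled ratio was highest for ITGAM, at 0.750 (0.581 to 0.967), followed by LY96 at 0.70 (0.588 to 0.833), VCAN at 0.689 (0.576 to 0.824) and CD14 at 0.677 (0.552 to 0.829). CSF1R at 0.672 (0.494 to 0.912), CD86 at 0.669 (0.468 to 0.954) and LYZ at 0.640 (0.513 to 0.798) closed the order. The 7 intervals all overlapped each other and all held 0.683, so no 2 neighbours in this order could be told apart. Before scaling for depth the ratios went from 0.753 for LYZ to 0.881 for ITGAM.

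**Figure D1:**
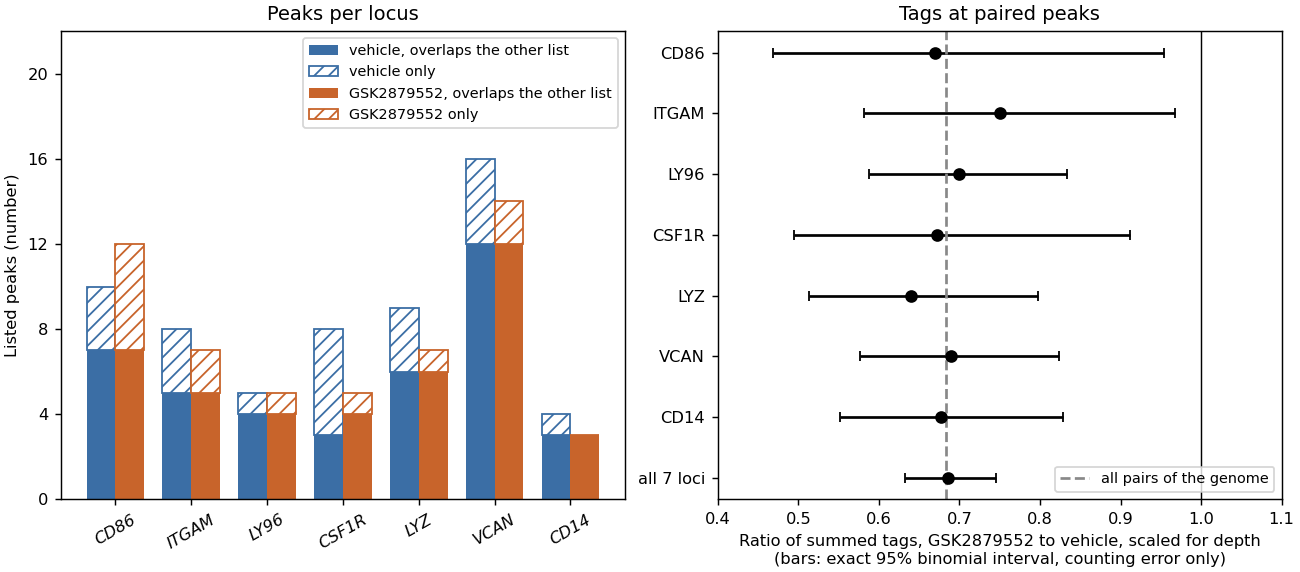
Left, listed peaks per locus (number) in the vehicle and GSK2879552 lists, with filled bars for peaks that overlap the other list and hatched bars for peaks listed under 1 condition. Right, ratio of summed summit tags at the pairs of each locus, GSK2879552 to vehicle, scaled for depth, with exact 95% binomial intervals. The 7 ratios lie between 0.640 and 0.750, around the dashed line at 0.683 for all pairs.

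Listed peaks within 1 kb of the 7 annotated starts were few. With 7 starts, counts this small cannot show whether peaks were rarer or commoner there than at other positions. The start of a gene was the end of its hg19 interval where transcription begins, and further starts of CD86 and CSF1R were not counted. A vehicle peak lay within 1 kb of this start at CSF1R and at none of the other 6 genes. No GSK2879552 peak lay within 1 kb of any of the 7. For comparison, 11.1% of all positions on the compared chromosomes had a vehicle summit within 1 kb, and 9.25% had a GSK2879552 summit. Within 2.5 kb, a distance chosen after the values were seen, CSF1R, LYZ, VCAN and CD14 had a vehicle peak, and LYZ and VCAN a GSK2879552 peak. Positions with a summit that near made up 24.7% and 20.9% of the chromosomes. At this wider distance the vehicle count, 4 of the 7 starts, thus stood above the share of positions. A start without a listed peak may still be open below the listing threshold. No listed peak had fewer than 8 tags with vehicle or 9 tags with GSK2879552, and the tags at unlisted positions are not given by the lists.

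**Figure D2:**
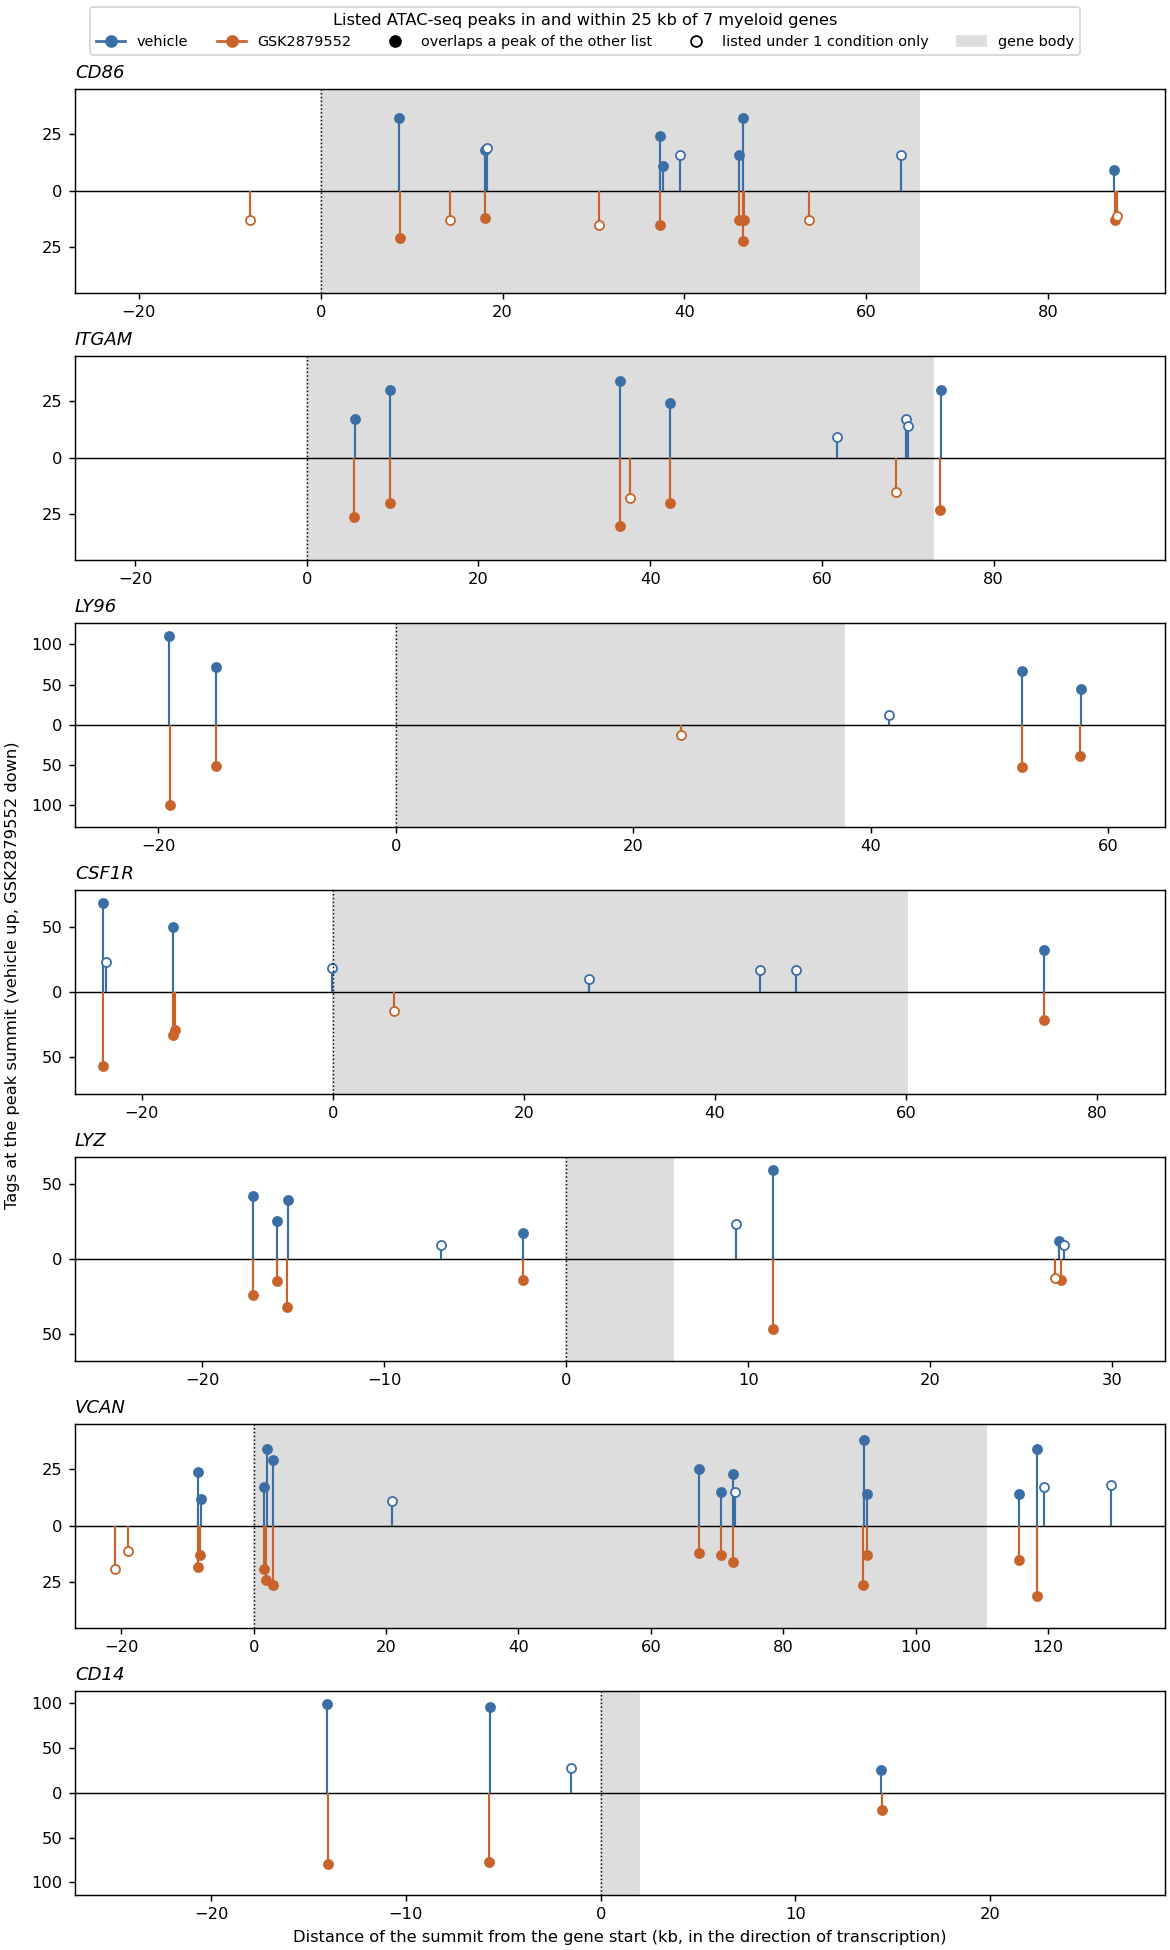
Summit tags of each listed peak (vertical axis, vehicle upwards, GSK2879552 downwards, not scaled for depth) against its distance from the gene start in kb, for the 7 loci. Grey marks the gene body and open circles mark peaks listed under 1 condition. Within 1 kb of the dotted line at the start stands 1 vehicle peak, at CSF1R, and the tallest peaks, up to 110 tags, lie outside the bodies of LY96 and CD14.

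CSF1R encodes the receptor tyrosine kinase for the growth factors CSF1 and IL34, on which macrophages depend, and it lies at chromosome 5, 149432854 to 149492935, on the minus strand. Of its 8 vehicle peaks, 3 had a GSK2879552 partner, 37.5% (exact Clopper-Pearson interval 8.52 to 75.5), and the interval held the 61.5% of all vehicle peaks. The other 5 had none, where 38.5% of all vehicle peaks had none. The vehicle peak at its start spanned 149492989 to 149493096, with its summit 105 bp before the start. It held 18 tags (exact 95% Poisson interval 10.7 to 28.4) over a local background of 4.08. No GSK2879552 peak was listed nearer than 6494 bp. Among GSK2879552 peaks on a background of 4 to 5 tags the fewest tags listed were 12 and the 5th percentile was 15, and over all pairs the treated library held 0.803 tags per vehicle tag before scaling. At that ratio a site of this strength would hold a count near the 5th percentile in the treated library. Whether that bears on its absence from that list was not tested.

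RefSeq, in its GRCh38.p14 promoter table, gives CSF1R a further start 26.8 kb downstream of the first. In hg19 a vehicle peak of 10 tags (4.80 to 18.4) stood 26.9 kb downstream of the start, at 149466000 to 149466099, over the genome-wide background of 2.31. It was among the weakest of its list, with 1.32% of vehicle peaks holding fewer tags, and the nearest GSK2879552 peak was 20296 bp away. Distances were taken within each build and no position was converted between builds. In hg19 a vehicle-only peak lay near the start, and another at about the distance of the further one. Whether these peaks stand on the RefSeq starts was not tested. The 250 bases before each of these RefSeq starts are shown. Capitals mark GGAA or its reverse complement TTCC, the core bound by ETS factors such as the myeloid regulator PU.1:
CSF1R first start: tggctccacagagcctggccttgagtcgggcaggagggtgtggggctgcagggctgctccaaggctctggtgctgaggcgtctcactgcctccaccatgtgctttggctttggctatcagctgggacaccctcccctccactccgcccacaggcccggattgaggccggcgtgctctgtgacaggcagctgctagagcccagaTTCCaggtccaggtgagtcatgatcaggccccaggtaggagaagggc
CSF1R second start: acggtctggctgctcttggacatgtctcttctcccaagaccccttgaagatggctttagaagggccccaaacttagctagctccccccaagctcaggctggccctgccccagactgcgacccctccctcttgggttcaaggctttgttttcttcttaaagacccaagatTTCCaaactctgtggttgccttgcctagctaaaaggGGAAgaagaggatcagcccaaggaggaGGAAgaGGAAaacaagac
The first sequence holds 1 such core and the second holds 4.

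The remaining vehicle peaks in the body of CSF1R, 44.7 kb and 48.5 kb downstream of the start, had 17 tags each and no GSK2879552 partner. In the treated cells the body held a single peak, 6.4 kb downstream of the start, with 15 tags and no vehicle partner. The shared peaks of the locus all lay outside the gene. PDGFRB is the next gene on the upstream side in RefSeq's order, and whether the peaks there lie within it was not examined. At 24.1 kb upstream, 68 vehicle and 57 GSK2879552 tags gave a ratio of 0.713 (0.492 to 1.03). At 16.8 kb upstream a vehicle peak of 552 bp and 50 tags stood against 2 narrower GSK2879552 peaks of 33 and 29 tags. Past the other end of the gene, 74.5 kb from the start, the values were 32 and 22 tags, a ratio of 0.585 (0.324 to 1.04). The region at 24.1 kb lies just inside the 25 kb limit, and just outside it, at 25.6 kb, stood a peak of 43 vehicle and 33 GSK2879552 tags.

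CD14 and LY96 act in the same sensor of bacterial lipopolysaccharide: CD14 hands the molecule to MD-2, the product of LY96, which sits on the receptor TLR4. CD14 lies at chromosome 5, 140011313 to 140013286, on the minus strand. No peak of either list lay in its short body. The nearest vehicle peak was 1.5 kb upstream of the start, with 28 tags (18.6 to 40.5) in 100 bp over a high local background of 7.20. It had no GSK2879552 partner, and the nearest GSK2879552 peak was 3930 bp away. On backgrounds of 7 to 8 tags the fewest tags of a listed GSK2879552 peak were 17 and the 5th percentile was 22. At the ratio of all pairs this peak too would hold a count near the 5th percentile. Whether that bears on its absence from the list was not tested.

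The strong peaks of the CD14 locus stood farther upstream, 5.7 kb and 14.0 kb from the start. At 5.7 kb there were 96 vehicle and 77 GSK2879552 tags, a ratio of 0.682 (0.499 to 0.930). At 14.0 kb there were 99 and 79 tags, a ratio of 0.679 (0.499 to 0.922). Both were wide, 871 bp and 879 bp in the vehicle list, and 97.4% to 98.9% of the peaks of their list held fewer tags. These peaks were 8.35 kb apart in the vehicle list and 8.29 kb in the GSK2879552 list. In the RefSeq promoter table the genes with starts within 25 kb on that side are TMCO6, NDUFA2 and IK, and the start of TMCO6 lies 8.18 kb from that of NDUFA2 and 8.38 kb from that of IK. These starts lie 6.3 kb (TMCO6), 14.5 kb (NDUFA2) and 14.7 kb (IK) upstream of the CD14 start of that table. That CD14 start may differ from the hg19 start used for the peaks. Whether the 2 strong peaks stand on the starts of these neighbours was not tested. A weaker pair 14.4 kb downstream of the start of CD14 had 25 and 19 tags, a ratio of 0.646 (0.337 to 1.22). Of the 4 vehicle peaks of the locus, only the one nearest to CD14 was unshared, 25% where the share over all vehicle peaks was 38.5%. All 3 GSK2879552 peaks were shared, where 23.5% of all GSK2879552 peaks were not. The position of a single unshared peak was not tested. The 250 bases before the CD14 start of that table are shown as an example of a myeloid start with no listed peak on it in either list, with the same capitals:
CD14 start: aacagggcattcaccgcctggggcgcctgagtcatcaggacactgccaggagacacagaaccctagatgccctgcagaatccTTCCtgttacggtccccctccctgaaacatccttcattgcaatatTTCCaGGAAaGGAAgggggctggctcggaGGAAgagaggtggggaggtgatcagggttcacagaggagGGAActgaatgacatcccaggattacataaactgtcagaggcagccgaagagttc
The sequence holds 6 GGAA or TTCC cores.

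LY96 lies at chromosome 8, 74903564 to 74941307. Its body held no vehicle peak and 1 GSK2879552 peak, 24.1 kb downstream of the start, with 13 tags (6.92 to 22.2) over the genome-wide background of 2.72. The nearest vehicle peak was 17396 bp from it. The single peak with most tags at the 7 loci stood beside LY96. At 19.1 kb upstream there were 110 vehicle and 100 GSK2879552 tags, a ratio of 0.773 (0.584 to 1.02). At 15.1 kb upstream there were 72 and 51 tags, a ratio of 0.602 (0.412 to 0.875). The protein-coding genes next to LY96 on that side are TMEM70 and ELOC in the order given by RefSeq, and both peaks stood on high backgrounds, from 9.53 to 11.39 tags.

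Downstream of LY96 the peaks were narrower and on a low background. At 52.7 kb from the start, 67 vehicle and 52 GSK2879552 tags gave a ratio of 0.660 (0.451 to 0.963), and at 57.7 kb 45 and 39 tags gave 0.737 (0.468 to 1.16). A vehicle peak of 12 tags at 41.6 kb had no partner. At CD14 and LY96 alike, no listed peak of more than 28 tags fell in the gene or within 5 kb of its start.

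ITGAM encodes CD11b, the alpha chain of the leukocyte integrin Mac-1, which serves adhesion and the uptake of complement-coated particles. It lies at chromosome 16, 31271288 to 31344213, between PYDC1 and ITGAX. Neither list held a peak upstream of it within 25 kb. The peak nearest its start, 5.6 kb into the gene, was the clearest departure from the general pattern among the 36 pairs. It had 17 tags with vehicle and 26 with GSK2879552, more in the treated library even before scaling, and the scaled ratio was 1.30 (0.680 to 2.55).

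Among 16450 pairs of the genome with a total of tags within 10% of this one, 99.4% had a lower ratio. Of all pairs with 40 to 60 tags, 3.32% had a scaled ratio above 1. The interval is wide and holds both 1 and, barely, the ratio of all pairs, 0.683. The local background rose with it, from 2.90 to 4.16 tags, which is 1.22 times after scaling, and with background subtracted the ratio was 1.32. Whether a wider change in tags around this site, rather than at the summit, bears on the ratio was not tested. The pair was singled out of 36 by a comparison made after its values were seen.

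The other pairs of ITGAM did not share this direction. At 9.8 kb, on a background that also rose, 30 vehicle and 20 GSK2879552 tags gave 0.567 (0.305 to 1.03). At 36.5 kb the values were 34 and 30 tags, 0.751 (0.444 to 1.26), and at 42.3 kb 24 and 20 tags, 0.709 (0.371 to 1.34). Just past the end of the gene, 73.9 kb from the start, 30 and 23 tags gave 0.652 (0.362 to 1.16). A GSK2879552 peak of 18 tags (10.7 to 28.4) at 37.6 kb had no vehicle partner, though a vehicle peak of 34 tags lay 769 bp away. Toward the end of the gene the lists differed among weak peaks, with vehicle peaks of 9, 17 and 14 tags at 61.8, 69.7 and 70.0 kb and a GSK2879552 peak of 15 tags at 68.6 kb. The 250 bases before the start are shown because ITGAM is a marker of the myeloid response and neither list held a peak there, with capitals as above:
ITGAM start: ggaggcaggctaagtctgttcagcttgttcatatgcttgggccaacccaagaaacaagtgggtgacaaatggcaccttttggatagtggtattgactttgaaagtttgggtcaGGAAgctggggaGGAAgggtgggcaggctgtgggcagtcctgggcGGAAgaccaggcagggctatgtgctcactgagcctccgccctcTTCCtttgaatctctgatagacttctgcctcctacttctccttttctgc
The sequence holds 4 GGAA or TTCC cores.

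CD86 encodes a ligand for CD28 and CTLA4 by which antigen-presenting cells stimulate T cells, and it lies at chromosome 3, 121774209 to 121839988. It was the only one of the 7 loci with more GSK2879552 than vehicle peaks, 12 against 10, where all compared chromosomes had 0.842 GSK2879552 peaks per vehicle peak. Of the 12, 5 had no vehicle partner, where 23.5% of all GSK2879552 peaks had none. The share with a partner was 58.3% (27.7 to 84.8), an interval that held the 76.5% of all. These 5 peaks had 11 to 15 tags. They stood 7.8 kb upstream and 14.3, 30.6, 53.7 and 87.5 kb downstream of the start. Of these, only the one at 30.6 kb, with 15 tags (8.40 to 24.7), reached a −log10 q of 5, the stricter level used here.

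Of the 10 vehicle peaks at CD86, 3 were listed in that condition only, 30% where the share over all vehicle peaks was 38.5%. They lay at 18.3, 39.6 and 63.8 kb, with 19, 16 and 16 tags. All 3 reached that stricter level, as did 8 of the 10 vehicle peaks of the locus. The one at 18.3 kb lay 168 bp from a GSK2879552 peak. Those at 18.3 and 63.8 kb stood on the genome-wide background of their list. On that of the GSK2879552 list the fewest tags of a listed peak were 9 and the 5th percentile was 11. No vehicle peak lay upstream of CD86 within 25 kb. RefSeq gives CD86 a further start 22.4 kb downstream of the first, and no peak of either list had its summit between 18.3 and 30.6 kb in hg19.

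The strongest sites of CD86 were in its body and were listed under both conditions. At 8.6 kb there were 32 vehicle and 21 GSK2879552 tags, a ratio of 0.558 (0.306 to 0.998). At 46.4 kb a vehicle peak of 32 tags overlapped 2 GSK2879552 peaks of 22 and 13 tags. At 37.3 kb the order was the opposite, with vehicle peaks of 24 and 11 tags over a single GSK2879552 peak of 15 tags. The weaker pairs at 18.1 and 45.9 kb had 18 and 12 tags and 16 and 13 tags. The pair at 87.3 kb was one of 2 among all 36 with a scaled ratio above 1, at 1.23 (0.486 to 3.26), from 9 vehicle and 13 GSK2879552 tags. A ratio above 1 was found at 5.83% of all pairs, and at more of the weak ones: 16.0% of all pairs with under 40 tags had one. Among 2683 pairs with a total within 10% of that of the CD86 pair, 92.5% had a lower ratio and 4.44% a higher one. Its 9 vehicle tags were near the fewest of that list, 8, and 0.116% of vehicle peaks held fewer.

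LYZ and VCAN encode secreted products of monocytes, lysozyme, which cleaves bacterial cell walls, and versican, a proteoglycan of the extracellular matrix. LYZ lies at chromosome 12, 69742134 to 69748013, and had the densest surroundings, with 16.1 vehicle and 12.5 GSK2879552 peaks per 100 kb. Of 30091 windows of 100 kb along the chromosomes, 97.9% and 94.9% held fewer peaks than these rates. The comparison is of unlike sizes, since the rates of LYZ come from 9 and 7 peaks in a window of 55.9 kb. The median window held 6 vehicle and 5 GSK2879552 peaks. Still, no peak of either list lay in the body of LYZ.

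Nearest to the start of LYZ, 2.4 kb upstream, a pair had 17 vehicle and 14 GSK2879552 tags, a ratio of 0.70 (0.320 to 1.51). A group of 3 pairs stood 15.3 to 17.2 kb upstream. The outermost fell from 42 to 24 tags, a scaled ratio of 0.486 (0.282 to 0.821), and its width went from 497 to 212 bp. The middle one had 25 and 15 tags, 0.510 (0.250 to 1.01), and the innermost 39 and 32 tags, 0.698 (0.423 to 1.14). The strongest peak of the locus, 11.3 kb downstream of the start and over 5 kb past the end of the gene, was 843 bp wide and had 59 and 47 tags, 0.678 (0.452 to 1.01). The next gene on that side is YEATS4. A vehicle-only peak of 23 tags (14.6 to 34.5) stood 1909 bp from it, on the side of LYZ. The remaining peaks of the locus, at 6.9 kb upstream and about 27 kb downstream of the start, had 9 to 14 tags.

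VCAN, at chromosome 5, 82767493 to 82878122, had the most peaks, 16 with vehicle and 14 with GSK2879552, over the longest body. Of these, 12 formed pairs. The group nearest its start lay 1.5, 1.9 and 3.0 kb into the gene. There the values were 17 and 19 tags, 34 and 24 tags, and 29 and 26 tags, with ratios of 0.951 (0.468 to 1.95), 0.600 (0.341 to 1.04) and 0.763 (0.431 to 1.34). Deep in the gene, at 67.3 kb, 25 vehicle and 12 GSK2879552 tags gave 0.408 (0.187 to 0.843), the lowest ratio of the 36 pairs. Of 14101 pairs with a similar total, 1.54% had a lower one. The strongest vehicle peak of the locus, at 92.2 kb, had 38 and 26 tags, 0.582 (0.339 to 0.984). The strongest GSK2879552 peak, at 118.3 kb, had 31 tags, against 34 with vehicle.

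At VCAN 4 of 16 vehicle peaks were listed in that condition only, 25% where the share over all vehicle peaks was 38.5%. Of its 14 GSK2879552 peaks, 2 were listed in that condition only, 14.3% where the share over all was 23.5%. Neither share exceeded its background, and the placing of these few peaks was not tested. Upstream, at 21.0 and 19.0 kb, were GSK2879552-only peaks of 19 (11.4 to 29.7) and 11 tags, and the nearest vehicle peak lay 12447 bp from the first of them. Downstream, at 119.4 and 129.6 kb, were vehicle-only peaks of 17 and 18 tags, and within the body there were vehicle-only peaks of 11 and 15 tags at 20.9 and 72.7 kb. The GSK2879552 peak at 21.0 kb was the strongest of the 12 GSK2879552-only peaks of the 7 loci.

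Read over all 36 pairs, the counts at the 7 genes lay near those of the genome. After scaling, 34 pairs had fewer tags with GSK2879552 and 2 had more, 1 in CD86 and 1 in ITGAM, or 2 of 36 against the 5.83% of all pairs given above. Before scaling, 30 had fewer and 6 had more, where 12.8% of all pairs had more. Ratios below 0.5 were found at 2 pairs, in LYZ and VCAN, where 7.10% of all pairs had one. The GSK2879552 peak was the narrower one in 29 of 36 pairs, where 81.2% of all pairs were. Set against pairs of a similar total of tags, 17 of the 36 lay above the median, 1 above the 95th percentile (ITGAM, 5.6 kb) and 1 below the 5th (VCAN, 67.3 kb). No interval of a pair excluded 0.683.

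**Figure D3:**
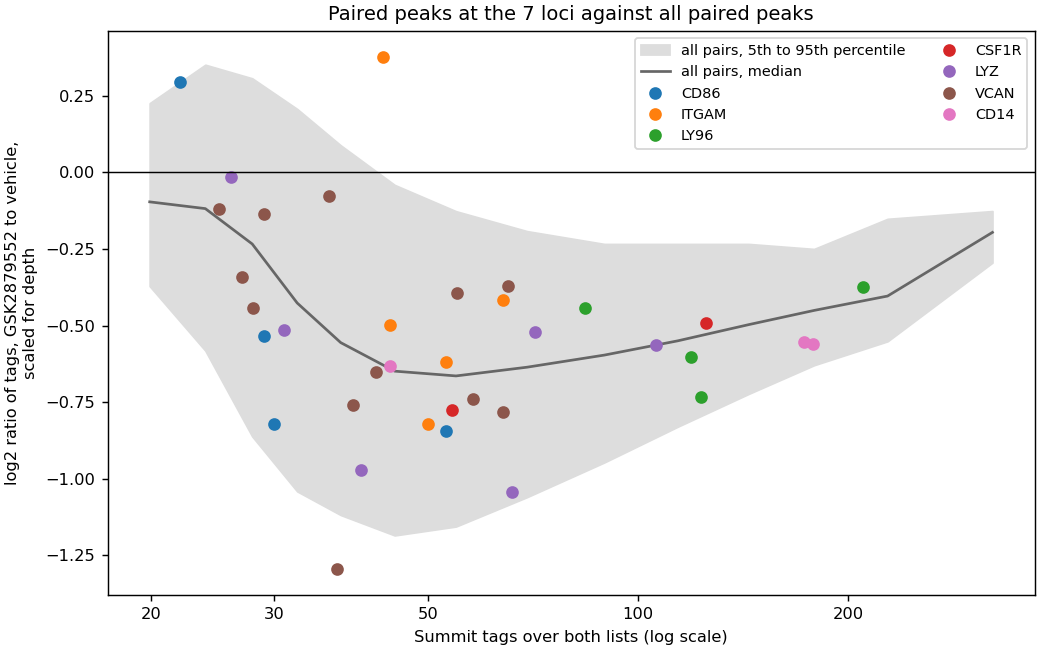
Scaled log2 ratio of summit tags, GSK2879552 to vehicle, against the tags summed over both lists (log scale), for the 36 pairs of the 7 loci, coloured by gene. The grey band spans the 5th to 95th percentile of all pairs and the line is their median. The points follow the band, with the ITGAM pair at 0.38 above it and the VCAN pair at -1.29 below it.

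Listed peaks in the bodies of the 7 genes had fewer tags than those in the flanks, while the ratios were close. In the bodies the median peak had 17 tags with vehicle and 15 with GSK2879552, and in the flanks 25 and 22.5. The medians of all peaks, 22 and 20, lay between these. The highest body peak, in VCAN, had 38 vehicle tags, while the flanks of LY96 reached 110. Scaled ratios were 0.676 (0.578 to 0.791) over 15 body pairs and 0.690 (0.626 to 0.760) over 21 flank pairs. Peaks lay in the bodies of 4 genes with vehicle (CD86, ITGAM, CSF1R and VCAN) and of the same 4 plus LY96 with GSK2879552. Bodies and flanks thus do not stand for the same genes, and the difference in tags was not tested.

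At the stricter −log10 q of at least 5 in the peak's own list, 9 of 44 vehicle peaks of the 7 loci were without partner, where the share over all such vehicle peaks was 25.2%. They lay at CD86 (3), VCAN (3), CSF1R, LYZ and CD14. In the other direction 3 of 33 GSK2879552 peaks were without partner, at CD86, ITGAM and VCAN, where the share over all was 4.53%. These 3 peaks held 15, 18 and 19 tags, and with 1 library per condition the difference in share cannot be tested.

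Motifs were also counted in the sequences before the starts. The promoter table held 7 starts of 5 of the genes, CD86, ITGAM, CSF1R, VCAN and CD14. In the 250 bases before them, on either strand, the PU.1 form GAGGAAGT, which contains the ETS core, was found at none, nor were the C/EBP form TTGCNNAA, the GFI1 form AATCAC or the TATA form TATAAA. Over all 35116 promoters these letters occurred in 2.17%, 9.05%, 9.02% and 10.7%. With shares this low, finding none at 7 starts does not set these genes apart from other promoters. Only these exact letters were searched, so other forms of the same sites would be missed. The ETS core GGAA occurred 1 to 6 times per member start, and at least once in 92.7% of all promoters, with a median of 3. CG pairs numbered 2 to 12 in these bases, below the median of 11 over all promoters at 6 of the 7 starts and above it at VCAN, with 12.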

How the data were processed

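The 2 peak lists, 1 per condition, were analysed. Both lanes of a condition name the same list, which was taken to pool them. Per the submitters' processing notes the tools were MACS2 2.1.2, BWA 0.7.2 and SAMtools 0.1.18, with no role given, and the genome was hg19 (GRCh37). The sources used here give neither read filters nor the handling of duplicates nor any shift to the cut site. The deposited lists give per peak a score, a fold enrichment at the summit, a −log10 p and −log10 q, and the summit offset. The score, fold and −log10 values are the authors'. They were used to rank or filter peaks within a list and to recover tags.

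Summit tags were recovered as the whole number that reproduces fold (each term with 1 added) and Poisson −log10 p. This matched within 0.001 for 100% of rows of both lists, and the step was tested on simulated data. Tags were scaled by 1.18, the ratio of the lowest backgrounds, 2.72 and 2.31. Library totals were not used here. Gene positions in hg19 came with the definition of the loci. Other genes, luminal prostate markers and lists of further myeloid genes need hg19 positions and were not analysed here. The names of neighbouring genes and the promoter sequences are RefSeq's, GRCh38.p14, 5 of the 7 genes being in the promoter table.

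All 7 genes were named, with the peak nearest the start, the strongest peaks and peaks of −log10 q of at least 5 in 1 list only, and other peaks, chosen after their values were seen, by position. The genes and lists were chosen with earlier results of these data known. Alternatives were other windows (gene body, 10 kb, 50 kb), overlap rules (50% reciprocal, summits within 250 bp), −log10 q of at least 5, no scaling, background subtraction and leaving out each locus. Added after seeing the data were pairs of at least 40 tags, flanks only, 2.5 kb from the start, and the comparison with pairs whose total lay within 10%. Python 3.11.15, NumPy 2.4.6, pandas 2.3.3, SciPy 1.17.1 and matplotlib 3.10.9 were used.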

Additional observations from a re-analysis of the deposited data

How the results depend on the processing

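No paired analysis was possible because each condition had 1 peak list, and no replicate could be left out. The ratio of summit tags over the pairs of the 7 loci, 0.686, was 0.806 with no scaling for depth and 0.661 with background subtracted. It went from 0.679 without ITGAM to 0.694 without LYZ when 1 locus was left out, and stayed below 1 in all 15 alternatives run. With gene bodies only, the 60 vehicle and 53 GSK2879552 peaks became 29 and 25, and the 40 and 41 with a partner became 18 and 18, since the bodies hold fewer peaks. With flanks of 10 kb there were 34 GSK2879552 peaks, and 26 vehicle and 26 GSK2879552 peaks with a partner. With 50 kb there were 82 GSK2879552 peaks. At a −log10 q of at least 5, 33 GSK2879552 peaks remained. Other counts stayed within 1.5 times. The 50% reciprocal overlap left 32 shared peaks in each list. The number of genes with a peak near the start, 1 with vehicle and 0 with GSK2879552 at 1 kb, was 4 and 2 at 2.5 kb. Most pairs held under 60 tags over both lists, and the interval of 28 of the 36 ratios included 1.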

Other observations

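Some weak peaks counted as listed under 1 condition stood right beside a peak of the other list. At 27 kb downstream of the LYZ start a vehicle peak of 9 tags lay 74 bp from a GSK2879552 peak of 14 tags, and a GSK2879552 peak of 13 tags lay 80 bp from a vehicle peak of 12 tags. At 87.5 kb from the CD86 start a GSK2879552 peak of 11 tags lay 104 bp from a vehicle peak of 9 tags. In VCAN, at 72.7 kb, a vehicle peak of 15 tags lay 118 bp from a GSK2879552 peak of 16 tags. At CSF1R, 23.8 kb upstream, a vehicle peak of 23 tags lay 181 bp from a GSK2879552 peak of 57 tags.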
